A study of Arabidopsis thaliana with 9 samples.

Results

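The genes described here are those of the plastid genome that serve its own gene expression and upkeep: the RNA polymerase subunits (rpo), the maturase matK, the ribosomal proteins of the small (rps) and large (rpl) subunits, clpP, accD and the ycf genes. They were found by symbol among the plastid loci of the TAIR10.1 gene table, and mitochondrial genes of the same names were left out. Of the 22810 probe sets on the array, 31 paired with 30 such genes, because rps12 has 2 probe sets. Probe sets for rpl2, rpl23, rps7, rps12, ycf1 and ycf2 pair with 2 loci each, so the copies cannot be told apart.

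RNA from whole seedlings was hybridised to 1-colour Affymetrix ATH1 arrays, 9 in all. The untransformed wild type is Col-0. The genotype called SPL13 is Col-0 with an added non-mutated copy of SPL13 that its native promoter drives, and mSPL13 is Col-0 with a mutated, microRNA156-resistant copy under the same promoter. SPL13 encodes a transcription factor of the nucleus that microRNA156 normally represses. All seeds were kept for 3 days in the dark at 4 °C and grown for 3 days in light at 22 °C on MS salts with 1% sucrose, and each genotype has 3 arrays, labelled as biological replicates from separate seed lots. Both transgenic genotypes also keep the endogenous SPL13 gene of Col-0. The sources used here do not say how the transgenic lines were chosen or how many each genotype holds. The annotation used here lists no gene for 8730 probe sets and pairs none with SPL13, so the transgene could not be checked. Whether the array carries a probe set for SPL13 is not known here.

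Chloroplasts keep a small genome of bacterial origin. It is read by a bacterial-type RNA polymerase with plastid-encoded core subunits, and by phage-type polymerases from the nucleus that transcribe the rpo genes, accD and clpP among others. The plastid ribosome is assembled from plastid-encoded and nuclear-encoded proteins, and in young seedlings this machinery is built up before and during greening. The question of these comparisons is whether transcripts of the machinery differ between the genotypes.

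The values are intensity signals that the authors made with MAS5, a method that combines the probes of a set into 1 number and scales every array alike. They were analysed as log2(signal + 20.7), where the added constant is the 20th percentile of all signals and makes fold changes of dim probe sets smaller than the ratio of their signals. Probe sets were tested where their mean log2 value exceeded 6.92, the 40th percentile, which left 13647. A probe set was called where limma's Benjamini-Hochberg adjusted p over all 13647 was under 0.05. Of the 31 probe sets, 30 passed the filter, and that of ycf2 did not. The filter takes the mean over all arrays. The first rps12 probe set and rpoB, with mean signals of 50.1 and 70.2 in SPL13, passed only through the other genotypes. Signals of different probe sets are not compared with each other. In RNA from whole seedlings, fewer plastids, fewer green cells and less RNA per plastid cannot be told apart.

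The median signal of an array lay between 175.95 and 191.65, and the log2 signals of any pair of arrays correlated at 0.959 to 0.988. The 3′ to 5′ ratio of control transcripts rises as RNA breaks down, and each control has 2 pairs of probe sets. On the r2 pairs it averaged 0.977, 0.951 and 1.05 in Col-0, SPL13 and mSPL13 for GAPDH, 1.12, 1.07 and 1.21 for ubiquitin, and 2.60, 2.59 and 2.87 for actin. On the other pairs these averages were 0.882, 0.919 and 0.957 for GAPDH, 2.19, 2.54 and 2.31 for ubiquitin, and 15.6, 22.6 and 21.6 for actin. On these, SPL13 replicate 1, the array with the lowest signals for most of the genes below, had the highest GAPDH ratio (1.102) and the highest actin ratio (33.0) of the 9 arrays. The other SPL13 arrays had actin ratios of 17.1 and 17.6, within the Col-0 range of 8.86 to 20.3, and mSPL13 replicate 1 had 28.8. On the r2 pairs, in contrast, SPL13 replicate 1 had the lowest GAPDH ratio of the 9 arrays (0.8385) and a ubiquitin ratio of 1.066. Its r2 actin ratio of 2.94 was below those of mSPL13 replicates 1 and 3 (3.12 and 3.21), so the 2 kinds of pairs disagree on this array. The part of RNA quality in the results was not tested. Array dates and other batch labels were not used here. Plastid transcripts do not carry the long stable poly(A) tail of nuclear messengers, and the sources used here do not name the primer for cDNA synthesis. With 3 arrays a group, precision is limited.

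Most of these transcripts had their lowest signals in the SPL13 seedlings, and the comparison of the 2 transgenic genotypes called most of them. Between mSPL13 and SPL13, 20 of the 30 probe sets tested were called higher in mSPL13 and 0 lower, where the array as a whole gave 1.86% called higher and 1.17% called lower. All 30 log2 fold changes were above 0, with a median of 1.41 against -0.00 over all probe sets tested, and they ranged from 0.01 for rps14 to 3.35 for rpoC1. The 3 mSPL13 arrays lay above the 3 SPL13 arrays for 25 of the 30 (12.3% of all probe sets tested), and below them for 0 (11.7%). A difference of at least 2-fold was seen for 20 members and one of at least 4-fold for 11. Over all 13647 probe sets tested, 105 were at least 2-fold and 30 at least 4-fold higher in mSPL13. Without mSPL13 replicate 3, 12 members were called, and without SPL13 replicate 1 the median was 1.01 with 19 called. Without mSPL13 replicate 1 and 2, 14 and 15 were called.

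**Figure D1:**
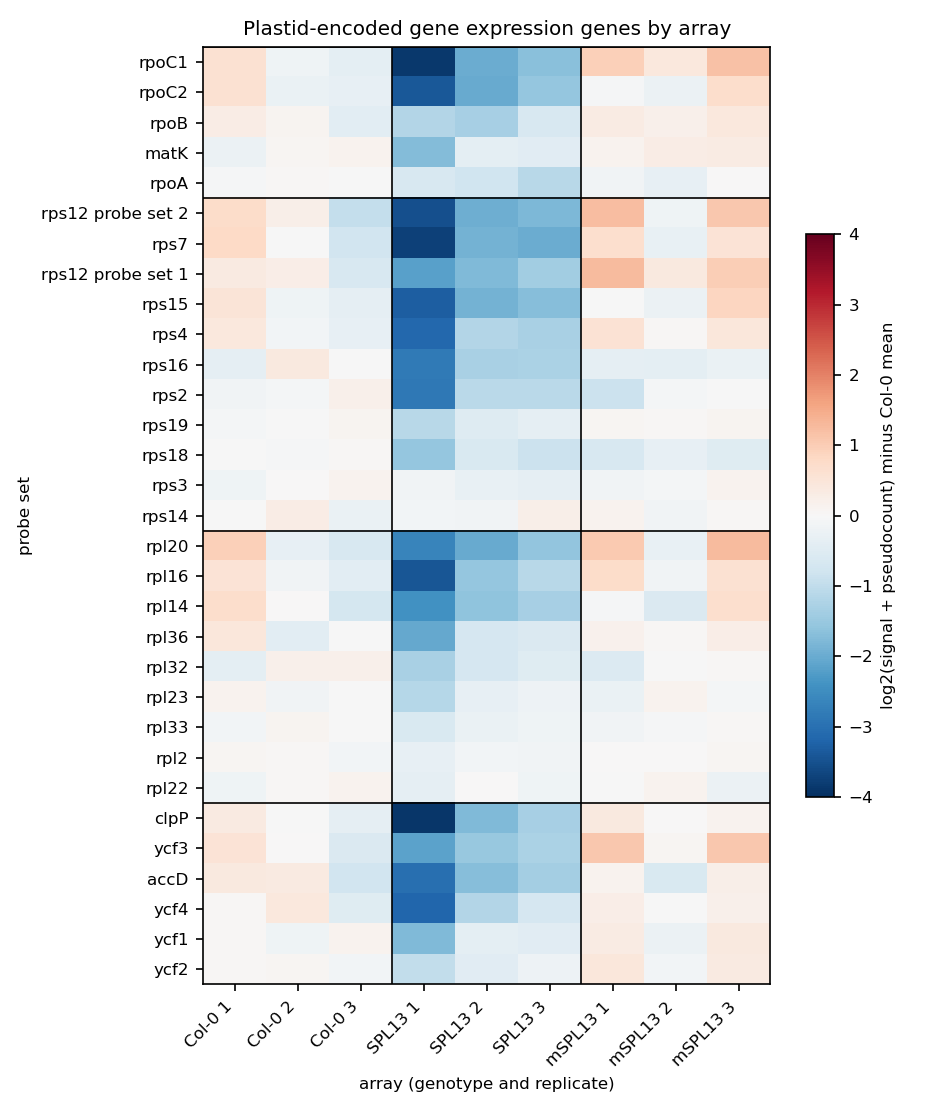
Level of each of the 31 probe sets (rows, grouped by role and ordered by change) on each of the 9 arrays (columns), as log2(signal + 20.7) minus the mean of the 3 Col-0 arrays. The SPL13 columns are mostly blue, below Col-0, and SPL13 replicate 1 is the lowest of the 9 arrays for 27 of the 31.

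Among the polymerase genes, rpoC1 changed most. It encodes the β′ subunit of the plastid polymerase, which forms part of the catalytic core. Its signals were 4054.6, 2351.5 and 2017.2 in Col-0 replicates 1 to 3, 164.3, 656.2 and 828.0 in SPL13, and 5154.0, 3579.4 and 6037.4 in mSPL13. All SPL13 arrays were below all others, and the highest Col-0 array exceeded the lowest mSPL13 array. The log2 fold change of mSPL13 over SPL13 was 3.35 ± 0.43 (SE, n = 3; 10.2-fold, limma adjusted p = 0.00108), and against Col-0 the SPL13 level differed by -2.51 ± 0.43 (adjusted p = 0.054).

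The gene rpoC2 encodes the β″ subunit, the second part of what is 1 protein in most bacteria. Its signals were 1492.4, 810.6 and 768.5 in Col-0, 73.5, 225.6 and 317.3 in SPL13, and 941.5, 819.7 and 1603.4 in mSPL13. The SPL13 arrays again lay below the other 6, whose ranges overlapped. The rise from SPL13 to mSPL13 was 2.46 ± 0.39 on the log2 scale (SE, n = 3; limma adjusted p = 0.00395).

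The gene rpoB encodes the β subunit and is transcribed together with rpoC1 and rpoC2. Its signals were 202.6, 179.1 and 117.3 in Col-0, 60.9, 51.9 and 97.8 in SPL13, and 208.8, 191.8 and 224.4 in mSPL13. Groups did not overlap between SPL13 and either other genotype. Its rise over SPL13 was 1.36 ± 0.22 on the log2 scale (SE, n = 3; limma adjusted p = 0.00425), and with a larger added constant, the 40th percentile, it was 0.86 (adjusted p = 0.00395).

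The α subunit gene rpoA, which lies at the far end of the main ribosomal protein cluster, had the smallest change of the rpo genes and little spread. Its signals were 9242.3, 9866.4 and 9263.0 in Col-0, 6039.0, 5417.8 and 4374.7 in SPL13, and 8486.1, 7454.5 and 9478.3 in mSPL13. The SPL13 arrays were the lowest 3, and here replicate 3, not replicate 1, was the lowest. The log2 fold change over SPL13 was 0.69 ± 0.13 (SE, n = 3; limma adjusted p = 0.00974, and 0.052 without mSPL13 replicate 3). SPL13 was also called lower than Col-0, by -0.85 ± 0.13 (adjusted p = 0.0436).

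The maturase matK helps splice several plastid introns. Its signals were 6908.2, 8658.6 and 8975.5 in Col-0, 2409.4, 6194.4 and 5951.4 in SPL13, and 9026.2, 10094.7 and 10186.0 in mSPL13. The 3 groups did not overlap, with SPL13 lowest and mSPL13 highest. The rise over SPL13 was 1.12 ± 0.26 (SE, n = 3; limma adjusted p = 0.033). It was 0.68 without SPL13 replicate 1, and the call was lost without mSPL13 replicate 1, 2 or 3 (adjusted p = 0.0841, 0.0963 and 0.11) and without Col-0 replicate 2 (0.0519). In all, the 4 rpo genes and matK were all called higher in mSPL13, with a median of 1.36.

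Of the 11 small-subunit probe sets, 7 were called higher in mSPL13 than in SPL13, with a median log2 fold change of 1.46. The proteins of this subunit hold the messenger and the decoding site. The largest change was on a probe set of rps12, whose product helps keep translation accurate and whose messenger is joined from separately transcribed pieces by trans-splicing. Its first probe set had signals of 286.6, 264.6 and 132.4 in Col-0, 31.5, 49.7 and 69.2 in SPL13, and 546.7, 288.6 and 446.2 in mSPL13. Its second probe set had 3811.3, 2664.8 and 1164.8 in Col-0, 181.9, 575.7 and 643.2 in SPL13, and 5409.3, 2003.4 and 4819.5 in mSPL13. On both, the SPL13 arrays were the lowest 3, and on the first the mSPL13 arrays were also above all Col-0 arrays. The log2 fold changes over SPL13 were 2.65 ± 0.28 and 3.12 ± 0.48 (SE, n = 3; limma adjusted p = 0.000231 and 0.00336).

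The gene rps7 follows part of rps12 in the inverted repeat, and its product binds early in small-subunit assembly. Its signals were 13365.4, 7576.7 and 4461.1 in Col-0, 562.2, 2046.0 and 1927.7 in SPL13, and 12209.6, 6309.6 and 11292.3 in mSPL13. The SPL13 arrays stood apart from the other 6, although the Col-0 arrays themselves were far from each other. In mSPL13 it was higher by 2.85 ± 0.44 on the log2 scale (SE, n = 3; limma adjusted p = 0.00369).

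The gene rps15 lies in the small single-copy region, away from the other ribosomal genes. Its signals were 1413.7, 881.7 and 767.3 in Col-0, 81.5, 252.9 and 287.5 in SPL13, and 968.2, 836.7 and 1802.5 in mSPL13. Every SPL13 array was below every other array. From SPL13 to mSPL13 it rose by 2.50 ± 0.37 on the log2 scale (SE, n = 3; limma adjusted p = 0.00303).

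The smallest changes of this class were those of rps3 and rps14. The signals of rps3 were 7896.0, 9131.3 and 9970.8 in Col-0, 8054.6, 7251.6 and 6927.3 in SPL13, and 8115.1, 8547.8 and 9777.9 in mSPL13. SPL13 replicate 1, the lowest array for most of these genes, was the highest of its group here, and the SPL13 and Col-0 arrays overlapped. The log2 fold change of mSPL13 over SPL13 was 0.25 ± 0.12 (SE, n = 3; limma adjusted p = 0.296). The gene rps14, which is transcribed with 2 photosystem I genes, had signals of 118.3, 151.6 and 96.0 in Col-0, 110.8, 107.8 and 144.6 in SPL13, and 132.9, 108.4 and 124.2 in mSPL13. These groups overlapped in every comparison, and the log2 fold change was 0.01 with a 95% interval of -0.39 to 0.41.

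Of the other small-subunit genes, rps4, an early assembly protein, rose by 2.23 ± 0.38 (limma adjusted p = 0.00614), with mean signals of 2375 ± 1346 in SPL13 and 9684 ± 1748 in mSPL13 (SD, n = 3). The intron-containing rps16 rose by 1.46 ± 0.32 (adjusted p = 0.0241), and by 0.94 without SPL13 replicate 1. The rise of rps19, at the border of the inverted repeat, was 0.73 ± 0.16 (adjusted p = 0.0216). The calls of both rps16 and rps19 were lost without mSPL13 replicate 1, 2 or 3 (adjusted p between 0.0564 and 0.0864). The values of rps2 and rps18 were 1.36 ± 0.37 and 0.52 ± 0.19, and neither was called (adjusted p = 0.0676 and 0.163), although without SPL13 replicate 2 or 3 rps2 was.

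The large-subunit proteins surround the site where peptide bonds are made, and of their 9 genes 4 were called higher in mSPL13. The median log2 fold change of 0.64 was the lowest of the 4 classes, a difference that was not tested. The gene rpl20 was highest among them, with signals of 1491.4, 606.1 and 484.4 in Col-0, 105.5, 173.1 and 239.6 in SPL13, and 1591.6, 613.6 and 1851.9 in mSPL13. Its SPL13 arrays were the lowest 3, and 1 array of Col-0 and 2 of mSPL13 stood far above the rest. The rise was 2.74 ± 0.42 (SE, n = 3; limma adjusted p = 0.00336).

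The gene rpl16 encodes a protein near the peptidyl transferase centre. Its signals were 10446.0, 6475.0 and 5355.9 in Col-0, 653.5, 2433.0 and 3260.9 in SPL13, and 11900.5, 6401.3 and 10840.6 in mSPL13. Its neighbour rpl14, whose product contributes to the contact between the subunits, had 3579.0, 2225.9 and 1357.4 in Col-0, 397.4, 713.4 and 876.1 in SPL13, and 2142.3, 1480.5 and 3533.0 in mSPL13. For both, SPL13 lay below the other 6 arrays. The rises over SPL13 were 2.42 ± 0.44 for rpl16 and 1.80 ± 0.35 for rpl14 (SE, n = 3; limma adjusted p = 0.00944 and 0.0139). The call of rpl14 was lost without mSPL13 replicate 3 (adjusted p = 0.0674).

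The gene rpl2 encodes a core protein of the subunit. Its signals were 23472.5, 22900.3 and 20749.5 in Col-0, 17781.4, 20648.3 and 20440.1 in SPL13, and 22639.6, 22685.4 and 23656.8 in mSPL13. The SPL13 arrays were again the lowest 3, but only just, and the log2 fold change was 0.23 ± 0.09 (SE, n = 3; limma adjusted p = 0.226). The signals of rpl22 were 8737.4, 10216.1 and 10873.6 in Col-0, 7688.6, 9968.2 and 8821.1 in SPL13, and 9740.8, 10840.3 and 8428.3 in mSPL13. Here the groups overlapped, and the value was 0.13 ± 0.13 (adjusted p = 0.655). The rise of rpl36 was 1.25 ± 0.30 (adjusted p = 0.0406). It was 0.77 without SPL13 replicate 1 (adjusted p = 0.0569), and its call was also lost without any single mSPL13 array (adjusted p = 0.116, 0.0889 and 0.13). The values of rpl23, rpl32 and rpl33 were 0.50, 0.64 and 0.31, and none of these passed the test.

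**Figure D2:**
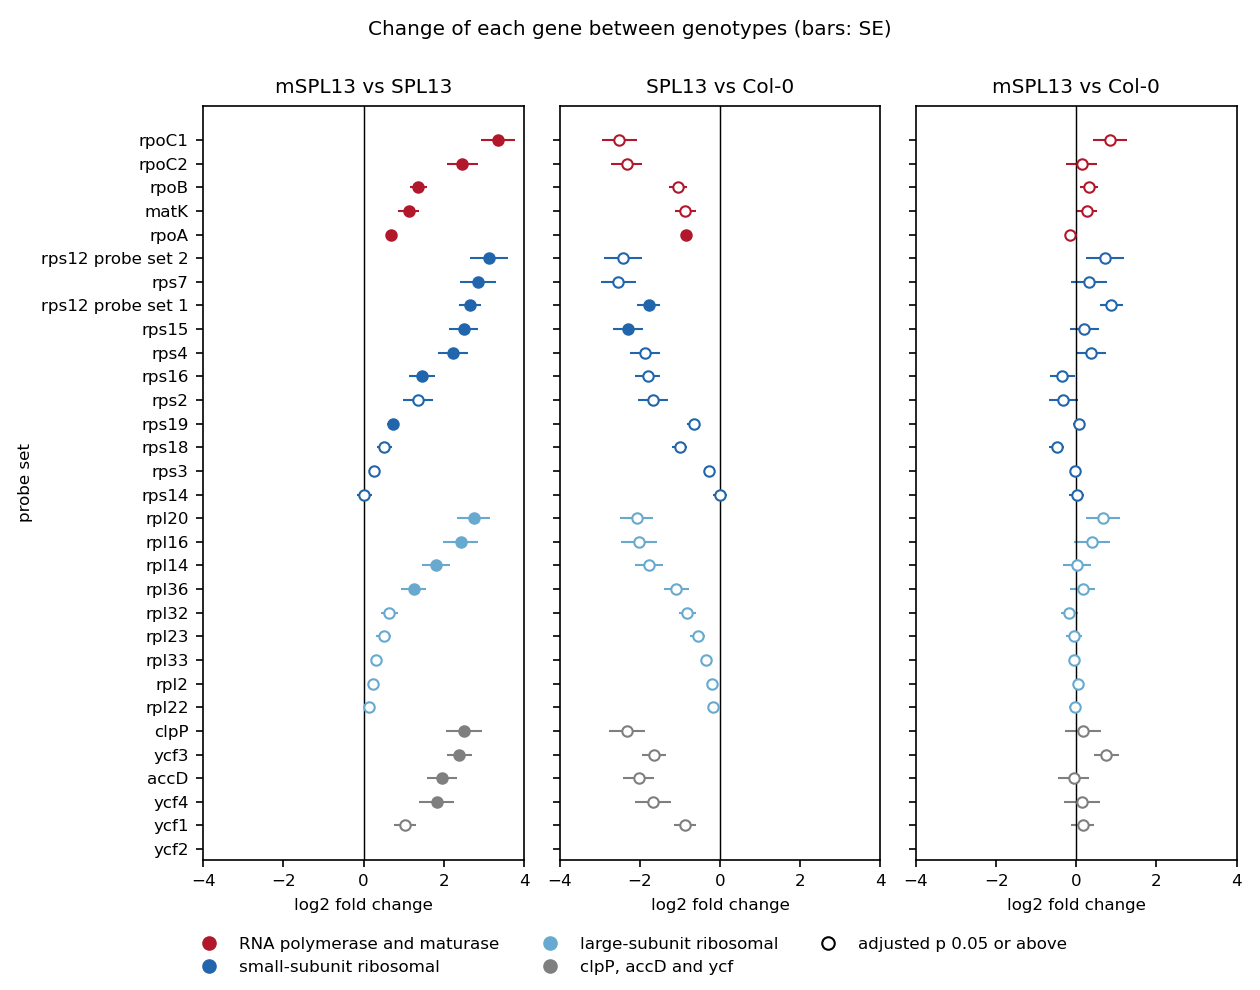
Log2 fold change of each probe set with its SE for mSPL13 versus SPL13 (left), SPL13 versus Col-0 (middle) and mSPL13 versus Col-0 (right), coloured by role; filled points have a limma adjusted p under 0.05, and ycf2 was not tested. In the left panel 20 points are filled and all lie right of 0, in the middle panel 3 are filled and lie left of 0, and in the right panel none is filled.

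The remaining genes serve protein turnover, fatty acid synthesis, import and photosystem assembly. The gene clpP encodes the plastid-made catalytic subunit of the Clp protease. Its signals were 15326.2, 11730.7 and 9331.6 in Col-0, 786.8, 3463.0 and 4722.8 in SPL13, and 15478.3, 12032.5 and 13069.5 in mSPL13. The lowest SPL13 array stood far below the other 2, and all 3 were below the remaining 6. It rose by 2.51 ± 0.45 on the log2 scale (SE, n = 3; limma adjusted p = 0.00883).

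The gene accD encodes a subunit of the acetyl-CoA carboxylase that starts fatty acid synthesis. Its signals were 1160.9, 1133.8 and 503.0 in Col-0, 89.7, 253.4 and 331.3 in SPL13, and 969.4, 570.3 and 1038.9 in mSPL13. SPL13 was lowest throughout, and Col-0 replicate 3 was less than a factor of 2 above the highest SPL13 array. The rise was 1.95 ± 0.39 (SE, n = 3; limma adjusted p = 0.0142), and the call was lost without mSPL13 replicate 1 or 3 (adjusted p = 0.0647 and 0.0704).

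The products of ycf3 and ycf4 assist the assembly of photosystem I. The signals of ycf3 were 879.1, 595.9 and 391.1 in Col-0, 118.5, 192.4 and 233.9 in SPL13, and 1258.5, 631.0 and 1282.4 in mSPL13. Those of ycf4 were 3011.0, 3868.0 and 2065.0 in Col-0, 303.7, 1257.9 and 1806.8 in SPL13, and 3439.7, 2831.2 and 3360.9 in mSPL13. SPL13 was below both other genotypes on every array for both genes. The rises were 2.39 ± 0.30 for ycf3 and 1.82 ± 0.44 for ycf4 (SE, n = 3; limma adjusted p = 0.00103 and 0.0406). For ycf4 the value was 1.08 without SPL13 replicate 1. Its call was lost without any single mSPL13 array (adjusted p = 0.126, 0.0872 and 0.124) and without Col-0 replicate 1 or 2 (0.053 and 0.0564).

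The genes ycf1 and ycf2 encode very large proteins that have been linked to protein import into the plastid. The signals of ycf1 were 5111.9, 4361.1 and 5416.5 in Col-0, 1444.2, 3788.3 and 3570.2 in SPL13, and 6188.9, 4180.2 and 6493.3 in mSPL13. SPL13 lay below both other genotypes, which overlapped, and the log2 fold change over SPL13 of 1.03 ± 0.28 (SE, n = 3) did not pass the test (limma adjusted p = 0.0691), although it did without SPL13 replicate 2. The probe set of ycf2 was too dim for the filter, averaging 71.4 ± 7.02 over the Col-0 arrays, 44.0 ± 17.3 over SPL13 and 88.5 ± 21.3 over mSPL13 (SD, n = 3). Its SPL13 arrays were also the lowest 3, and no test was made. Of the 5 tested genes of this group 4 were called higher in mSPL13, with a median of 1.95.

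The comparison of SPL13 with Col-0 shares the SPL13 arrays with the one above, so the values of the 2 are given side by side and are not independent. It asks what an added, non-mutated copy of the gene goes with. Of the 30 members 3 were called lower in SPL13 and 0 higher, where the array as a whole gave 0.0366% lower (5 probe sets, of which these are 3) and 0.0147% higher. The 3 were rpoA, rps15 and the first rps12 probe set. The median was -1.66 against 0.01 over all probe sets tested, and the values ran from -2.53 for rps7 to -0.00 for rps14. SPL13 lay below Col-0 without overlap for 27 of the 30 (6.07% of all probe sets tested) and above it for 0 (6.98%), and 27 had an unadjusted limma p under 0.05 (8.83% of all probe sets tested).

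The fall of rps15 was -2.30 ± 0.37 and that of the first rps12 probe set -1.78 ± 0.28 (SE, n = 3; limma adjusted p = 0.0443 for both). With the 40th percentile as added constant the rps12 value was -1.10 and no longer called (adjusted p = 0.0615). Other members had differences of like size without a call, among them clpP with -2.33 ± 0.45 (adjusted p = 0.0739), rpoC2 with -2.33 ± 0.39 (0.051) and accD with -2.02 ± 0.39 (0.069). The 3 calls lay close to the threshold. Without Col-0 replicate 1, Col-0 replicate 2, SPL13 replicate 2 or mSPL13 replicate 1, 0 members were called. The mSPL13 arrays enter this comparison only through the spread, so without mSPL13 replicate 1 the 3 log2 values were the same. Their limma adjusted p was then 0.0779 for rps15, and 0.0755 for the first rps12 probe set and for rpoA. Without Col-0 replicate 3 or SPL13 replicate 3, 16 were called, without SPL13 replicate 1, 7, and without mSPL13 replicate 2, 5. The median of the members stayed below 0 in each of these fits, between -1.90 and -1.03. By role it was -1.04 for the rpo genes and matK, -1.78 for the small subunit, -0.81 for the large subunit and -1.67 for clpP, accD and the ycf genes.

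Between mSPL13 and Col-0, 0 of 30 members were called by limma, where the array as a whole gave 2.07% higher and 2.3% lower. At an unadjusted p under 0.05 there were 3 members (2 higher and 1 lower), or 10%, against 20% of all probe sets tested. A fit of these 6 arrays alone called 1, rps18. The median was 0.14 against 0.01 over all probe sets tested, with 20 values above and 10 below 0. Without overlap, mSPL13 was higher for the first rps12 probe set and matK (12.6% of all probe sets tested) and lower for rps18 (10.5%).

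This does not show that the levels are alike, because the intervals are wide. For rpoC1 the log2 difference was 0.84 with a 95% interval of -0.08 to 1.76, and for the first rps12 probe set it was 0.87 with one of 0.26 to 1.48 (limma adjusted p = 0.295 and 0.103). The gene ycf3 had 0.75 with an interval of 0.10 to 1.40 (adjusted p = 0.184). A small-subunit gene, rps18, went the other way, with signals of 2840.3, 2786.0 and 2951.0 in Col-0, 961.6, 1868.0 and 1575.0 in SPL13, and 1826.3, 2262.5 and 2048.1 in mSPL13. Its Col-0 arrays were the highest 3, and its difference was -0.48 with an interval of -0.88 to -0.09 (adjusted p = 0.161). The range for rpl2 was far narrower, at -0.16 to 0.24 around 0.04.

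By single array, the SPL13 arrays were unequal. The median of the 30 members, relative to the Col-0 mean, was -2.16 in SPL13 replicate 1, -1.19 in replicate 2 and -1.09 in replicate 3. In mSPL13 it was 0.14, -0.06 and 0.26, and in Col-0 0.22, 0.01 and -0.30, so the highest SPL13 array was below the lowest of the other 6. SPL13 replicate 1 was the lowest of the 9 arrays for 26 of 30 members, against 12.2% of all probe sets tested. All 3 SPL13 arrays were below all 6 others for 24 members (80.0%, against 2.19% of all probe sets tested), and the 6 exceptions were rpl22, rpl23, rpl32, rps3, rps14 and rps18.

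The medians by role on single SPL13 arrays were as follows, and no difference between roles was tested. In SPL13 replicate 1 the median was -3.02 for clpP, accD and the ycf genes, -2.84 for the small subunit, -1.75 for the rpo genes and matK, and -1.31 for the large subunit. In SPL13 replicate 3 these were -1.26, -1.28, -1.11 and -0.47. The medians of all probe sets tested lay between -0.02 and 0.02 on every array.

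**Figure D3:**
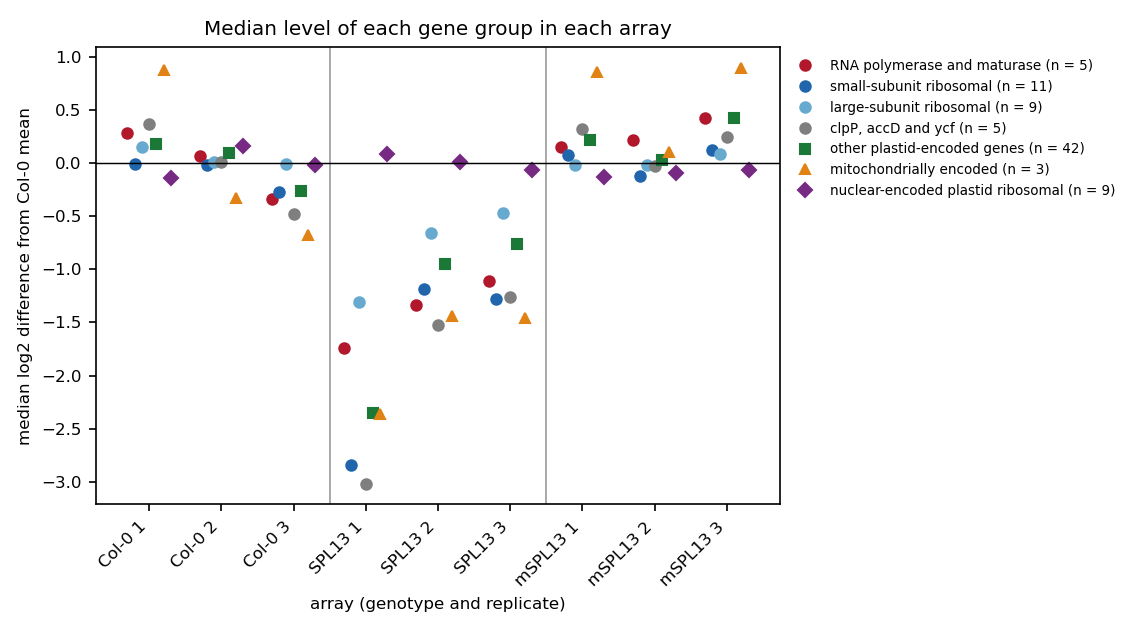
Median log2 difference from the Col-0 mean for each gene group (colours) in each of the 9 arrays, with the number of probe sets tested in the legend. The 4 groups described here, the other plastid genes and the 3 mitochondrial probe sets tested are all below -0.4 in the 3 SPL13 arrays, while the nuclear-encoded plastid ribosomal genes lie between -0.14 and 0.16 throughout.

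The other plastid genes gave similar values. Of 42 tested probe sets of other plastid genes, most of them for photosynthesis, 31 were called higher in mSPL13 than in SPL13 (1.86% of all probe sets tested). Their median was 1.66, and their medians in the SPL13 arrays were -2.35, -0.95 and -0.76. Of 19 mitochondrial probe sets 3 passed the filter. These 3 were all called higher, with a median of 2.52, and in the single Col-0 arrays their medians already ran from -0.68 to 0.88. In SPL13, nad4 averaged 84.3 and the probe set shared by mitochondrial rpl16 and rps3 67.8, which is under the cut of the filter. Both passed it through Col-0 and mSPL13, where they are higher, so the filter had a part in the 3 of 3. The 16 dimmer ones were not tested, and 11 were above and 5 below 0, between -0.38 and 0.62, with overlapping groups for 13. Whether the machinery genes and the other plastid genes differ was not tested.

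Transcripts of the nuclear genes that work with this machinery gave no such pattern where they could be measured. Lists of 105 such genes covered sigma factors, polymerase-associated proteins, nuclear-encoded plastid ribosomal proteins and translation factors. They also covered Clp subunits, carboxylase subunits, import and photosystem I assembly partners and splicing factors. The annotation used here, which lists no gene for 8730 probe sets, paired 21 of the 105 genes with a probe set. Of those, 20 genes with 21 probe sets were tested. None of these was called by limma in any of the 3 comparisons, and at an unadjusted p under 0.05 there were 0, 0 and 1 for mSPL13 versus SPL13, SPL13 versus Col-0 and mSPL13 versus Col-0, where all probe sets tested gave 16.7%, 8.83% and 20%. The medians were -0.01, 0.00 and -0.00. The sigma factors and phage-type polymerases (8 genes), the polymerase-associated proteins (13) and the carboxylase subunits (4) had no tested member, so those parts of the machinery were not analysed here.

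The 9 of 40 nuclear-encoded plastid ribosomal proteins that were tested had log2 fold changes between -0.24 and 0.12 for mSPL13 versus SPL13, and their medians on single arrays lay between -0.14 and 0.16. The smallest p was that of AT1G64510, at -0.34 ± 0.13 in mSPL13 versus Col-0 (limma adjusted p = 0.155). Of the Clp subunits 6 of 15 were tested with 7 probe sets, and AT4G25370 was nearest to a call with 0.31 ± 0.15 in mSPL13 versus SPL13 (adjusted p = 0.307). The splicing factor CAF1 had -0.35 ± 0.18 in SPL13 versus Col-0 (adjusted p = 0.599). The translation initiation factor FUG1 had -0.12 ± 0.15, the malate dehydrogenase MDH of the import list 0.10 ± 0.12 and the photosystem I assembly factor AT1G22700 0.17 ± 0.13 in mSPL13 versus SPL13, none of them called.

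Markers of organs gave the following. Of 27 nuclear photosynthesis genes, 4 were tested (RCA, LHCB4.1, LHCB4.2 and PRK), and 0 were called, with medians of -0.09, 0.07 and 0.06 in the 3 comparisons. PRK, of the Calvin cycle, had the smallest p, with 0.27 ± 0.11 in SPL13 versus Col-0 (limma adjusted p = 0.486). Of 6 root markers 4 were tested. NAI2, which endoplasmic reticulum bodies need, was lower in mSPL13 than in SPL13 by -0.60 ± 0.11 (adjusted p = 0.0097) and than in Col-0 by -0.67 ± 0.11 (adjusted p = 0.00377). In mSPL13 versus SPL13, PYK10, EXPA7 and EXPA18 had 0.04, 0.22 and -0.15, and the median of the 4 was -0.06. Against Col-0 these genes had -0.07, -0.09 and -0.50 in mSPL13, and none of them was called in either comparison. In SPL13 versus Col-0, NAI2, PYK10, EXPA7 and EXPA18 had -0.07, -0.11, -0.31 and -0.34, with a median of -0.21, and none was called. The root marker medians on single arrays ran from -0.10 to 0.11 in Col-0, -0.22 to -0.05 in SPL13 and -0.43 to -0.22 in mSPL13, and their part in the results was not tested. None of the 12 seed and embryo markers had a paired probe set.

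The members with the largest change between the transgenic genotypes tended to be those that varied most among the wild-type arrays. The fold change itself does not use the Col-0 arrays, although its test takes the spread from all 9. Across the 30 members, the SD of log2 values among the 3 Col-0 arrays and the log2 fold change of mSPL13 over SPL13 had a Pearson correlation of 0.825 and a Spearman correlation of 0.831. This is a description across probe sets that share the same arrays. Across the 42 other plastid probe sets the values were 0.70 and 0.675, and across all probe sets tested, with the absolute change, 0.266 and 0.131. The median SD among Col-0 arrays was 0.366 for the members and 0.17 for all probe sets tested.

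Examples are rps12 on its second probe set, with an SD of 0.868 and a change of 3.12, rpl20 with 0.838 and 2.74, and rps7 with 0.789 and 2.85. At the other end stood rps18 with 0.042 and 0.52, rpoA with 0.053 and 0.69, and rpl2 with 0.094 and 0.23. In Col-0, 7 of 30 members (23.3%) were at least 2-fold higher in replicate 1 than in replicate 3, against 0.52% of all probe sets tested. Replicate 1 of Col-0 was the highest of its group for 17 members and replicate 3 the lowest for 17. In mSPL13, replicate 2 was the lowest for 21 members and replicate 3 the highest for 19. The shares of all probe sets for such ranks within a group were not counted.

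**Figure D4:**
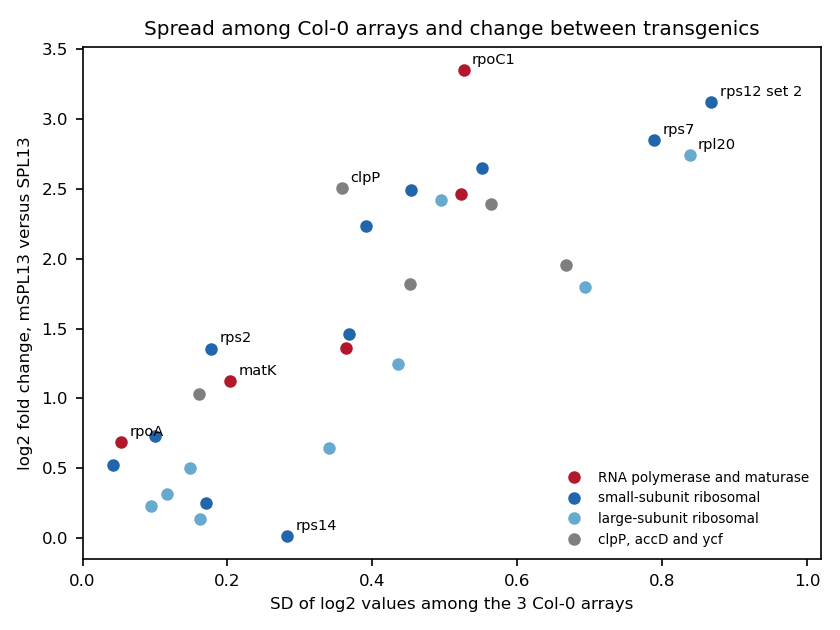
SD of log2(signal + 20.7) among the 3 Col-0 arrays (horizontal) against the log2 fold change of mSPL13 over SPL13 (vertical), 1 point for each of the 30 members tested, coloured by role. The points rise from rps18 and rpoA at the lower left to rps12 (second probe set) and rps7 at the upper right, and rps14 lies lowest at an SD of 0.282.

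Plastid genes are arranged in clusters that are often transcribed together, so the changes were set in gene order. Each gene was placed once, at its first locus in the TAIR10.1 gene table, and second loci were left out. In this order 16 pairs of members have no other protein-coding gene between them. Their log2 fold changes of mSPL13 over SPL13 differed by 0.55 at the median, by under 0.5 for 7 pairs and by over 1 for 5 pairs. Among these 5 is the pair of rps7 and ycf1, at 1.82, which was counted without the part of rps12 beside rps7. In the main ribosomal protein cluster, rpl23, rpl2, rps19, rpl22 and rps3 had values of 0.50, 0.23, 0.73, 0.13 and 0.25. The next gene, rpl16, had 2.42, and rpl14, rpl36 and rpoA followed with 1.80, 1.25 and 0.69. The cluster thus held members with hardly any difference beside members with a 5.35-fold one.

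The polymerase cluster ran from 1.36 for rpoB to 3.35 for rpoC1 and 2.46 for rpoC2, with 1.36 for rps2 behind it. At another place rpl33 and rps18 had 0.31 and 0.52, and the adjoining rpl20, rps12 and clpP had 2.74, 2.89 (the mean of its probe sets) and 2.51. The step from rps18 to rpl20 was the widest between neighbours, at 2.22. Strand was not taken into account, so neighbours in this order need not be transcribed together. Probe sets differ in how their signal follows the RNA, so these are differences of change within probe sets and not of level.

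**Figure D5:**
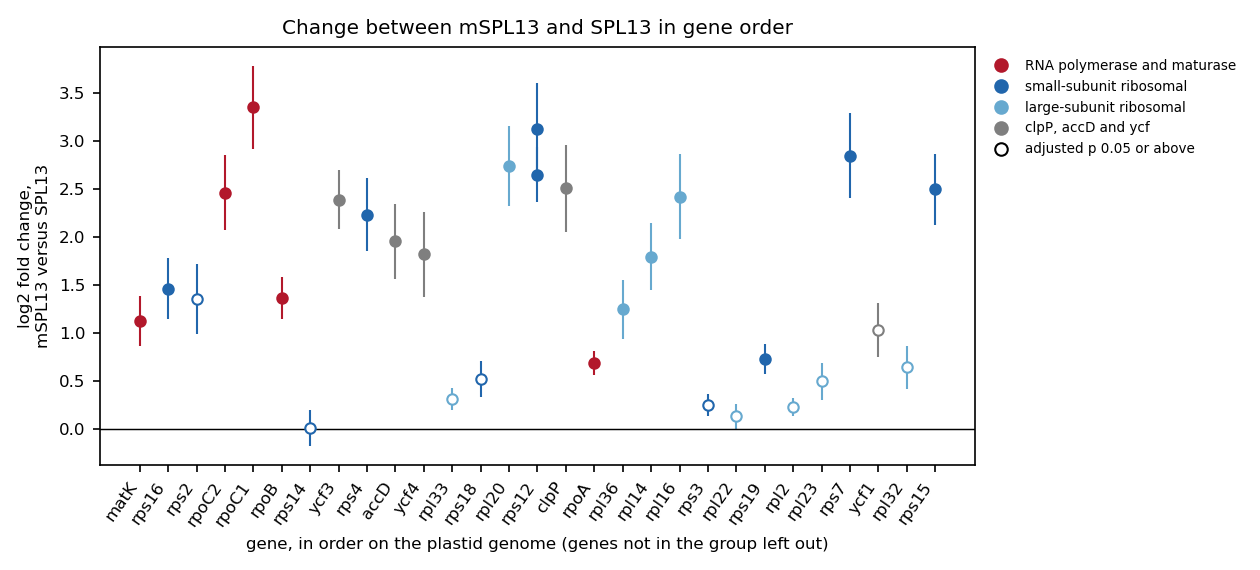
Log2 fold change of mSPL13 over SPL13 with its SE for each tested member, placed in its order on the plastid genome with other genes left out, coloured by role; filled points have a limma adjusted p under 0.05. Values rise and fall in steps along the order, from 0.01 at rps14 to 3.35 at rpoC1, and change from 0.25 to 2.42 between rps3 and rpl16.

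A limit of the comparison between transgenic genotypes is that it turns on the mSPL13 arrays as well as on SPL13. In every one of the 9 fits that left out 1 array, 12 member probe sets were called: those of rpoB, rpoC1, rpoC2, rps4, rps7, rps15, rpl16, rpl20, clpP and ycf3, and both of rps12. Each of these fits tested the same 13647 probe sets, so the filter itself was not varied. Of the 12, rpoB and the first rps12 probe set passed it only through the other genotypes. Both were lost with the filter at the 60th percentile. The share of all probe sets called in every such fit was not counted.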

How the data were processed

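The authors deposited linear intensity signals, made with MAS5 in GCOS per the submitters' processing notes. Per the labels' protocols, RNA came from a phenol and SDS extraction and was labelled as biotinylated cRNA. Scaling parameters and detection calls were not used here. Probe sets were named through the platform's annotation table and the TAIR10.1 gene table: of 22810 probe sets, 13513 pair with 1 gene, 503 with several, 8730 have none listed and 64 are controls. Signals were transformed as log2(signal + 20.7), probe sets under the 40th percentile of mean log2 value were left out, and limma 3.58.1 (R 4.3.3) estimated a mean for each genotype from the 9 arrays together (eBayes with trend, 6 residual and 7.92 prior degrees of freedom, Benjamini-Hochberg adjustment over 13647 probe sets). Summaries used Python 3.11.15 with pandas 2.3.3. The fit was tried on simulated data with independent noise for each probe set. Shifts shared by the members on an array were not part of that trial. Errors are SE of log2 fold changes and SD of signals.

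The members and gene lists were chosen with earlier results of these data known. Values on every array are given in each class for the 3 largest and 2 smallest absolute changes in mSPL13 versus SPL13, for whole classes of up to 5 tested genes and for every member called against Col-0; rps18 and ycf2 were added after their values were seen. From each nuclear list, called genes or else the one with the smallest p are named. Alternatives were other added constants, filters, normalizations, variance models, a replicate block, array weights, a stricter threshold and leaving out each array.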

Additional observations from a re-analysis of the deposited data

How the results depend on the processing

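The members called higher in mSPL13 than in SPL13 numbered 20, and 13 without the filter on low signal or at an adjusted p under 0.01. Leaving out 1 array gave 12 to 22, and a median of 1.01 to 1.69. The count for SPL13 versus Col-0, 3 in the reported fit, changed under most settings. Over all probe sets tested, the reported fit called 7. The members called were 6 with the 40th percentile as added constant (14 over all) and 9 with median centring (24 over all). With the stricter filter (60th percentile), quantile normalization or array weights, 1 member was called (5 over all in each). None was called without the filter, without the variance trend or at an adjusted p under 0.01 (1 over all in each), or with the compared groups only (2 over all). Leaving out 1 array gave 0 to 16. The median of -1.66 was -1.21 with the 40th percentile as added constant, and -1.90 to -1.03 with 1 array left out. Centring without the organelle probe sets, chosen after seeing the data, gave 9 members (24 over all). The count for mSPL13 versus Col-0 was 0, but 1 in the fit of these groups alone, and 0 to 1 with 1 array left out, with medians of 0.01 to 0.24.

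The log2 fold change of rps14 changed sign. In mSPL13 versus SPL13 it was -0.021 with quantile normalization, -0.024 with median centring, -0.017 with array weights and -0.021 with centring without organelle probe sets, and -0.052 to 0.129 with 1 array left out. In SPL13 versus Col-0 it was 0.001 with the 10th percentile as added constant, 0.019 with quantile normalization, 0.016 with median centring, 0.029 with array weights, 0.012 with centring without organelle probe sets, and -0.136 to 0.145 with 1 array left out. The causes were not tested.

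The replicate numbers were not treated as pairs, since arrays with the same number had correlated deviations of -0.06 to 0.15. With the replicate number as a block, 21 members were called in mSPL13 versus SPL13 (19 shared with the reported 20), 4 in SPL13 versus Col-0 (rpoA shared) and 0 in mSPL13 versus Col-0. With 3 arrays a group the precision is limited, the transgene was not measured, and the nuclear partners are covered for 20 of 105 genes.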
